A study of Mus musculus with 15 samples.

Results

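Cardiac myocytes from newborn mice were compared after 4 h and after 30 min of transverse stretch, which asks how gene expression moved on between an early and a later time under a constant load. The comparison used 3 libraries at 4 h and 3 at 30 min, 6 of the 15 in the study, and 12006 of the 13657 genes in the deposited table. Genes entered with at least 1 FPKM (fragments scaled by transcript length and library size, a level per length) in at least 3 of the 15 libraries, and the 151 rows for microRNAs and small nucleolar RNAs were left out. Between 30 min and 4 h, 29 genes fell and 7 rose. Of the 29, 11 encode immediate early transcription regulators, and on the log2(FPKM + 1) scale used here Fos, Egr1, Fosb, Ier2 and Egr3 changed most.

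All cultures were neonatal cardiac myocytes of C57BL/6 mice attached to a silicone (PDMS) membrane, and the labels give no genetic change in any group. A static stretch of 14% along the primary axis and 3.6% across it was held for 30 min or 4 h, with the primary axis transverse or longitudinal; control cultures were not stretched. Each of the 5 groups had 3 stretchers, lettered A, B and C, which the labels call biological replicates; the number of animals behind each culture is not stated. The labels give 1 control group and no separate control for each duration.

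Immediate early genes are switched on by signals that reach transcription factors already present in the cell, so their transcription needs no new protein. Their messenger RNAs and proteins are mostly short-lived, and many of the encoded proteins are transcription factors or inhibitors of the pathway that induced them. In heart muscle cells, stretch and hormones that drive growth are known to induce Fos, Jun and Egr1. Serum response factor, which binds the CArG box, and CREB, which binds the cAMP response element (CRE), are among the best known activators of this class.

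The promoters of Fos, Nr4a1, Dusp1 and Egr2 are shown because these genes fell and their promoters hold several copies of the short CRE core. Each is the 250 bases before an annotated start, written on the gene's strand from RefSeq, GRCm38.p6. Capitals mark the CRE core TGACG or its complement CGTCA, the CArG box and the TATA box TATAAA. Fos lies at chr12:85473640-85473889 (+ strand), Nr4a1 at chr15:101266596-101266845 (+), Dusp1 at chr17:26508473-26508722 (- strand) and the Egr2 window at chr10:67537619-67537868 (+), which is 1 of 5 starts annotated for that gene.
Fos: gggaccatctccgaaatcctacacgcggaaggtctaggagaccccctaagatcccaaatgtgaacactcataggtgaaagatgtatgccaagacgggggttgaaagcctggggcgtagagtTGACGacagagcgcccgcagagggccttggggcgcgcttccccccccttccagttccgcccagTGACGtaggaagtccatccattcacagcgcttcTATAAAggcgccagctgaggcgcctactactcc
Nr4a1: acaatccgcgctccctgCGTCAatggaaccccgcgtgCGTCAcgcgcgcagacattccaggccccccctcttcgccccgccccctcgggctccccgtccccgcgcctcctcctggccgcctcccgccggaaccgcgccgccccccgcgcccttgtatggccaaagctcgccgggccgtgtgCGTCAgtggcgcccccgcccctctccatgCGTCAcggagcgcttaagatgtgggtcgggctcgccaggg
Dusp1: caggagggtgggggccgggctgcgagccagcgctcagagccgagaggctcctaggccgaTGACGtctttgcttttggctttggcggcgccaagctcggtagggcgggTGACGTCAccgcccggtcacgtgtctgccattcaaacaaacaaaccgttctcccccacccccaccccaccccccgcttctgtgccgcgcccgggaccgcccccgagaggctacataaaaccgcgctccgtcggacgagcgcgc
Egr2: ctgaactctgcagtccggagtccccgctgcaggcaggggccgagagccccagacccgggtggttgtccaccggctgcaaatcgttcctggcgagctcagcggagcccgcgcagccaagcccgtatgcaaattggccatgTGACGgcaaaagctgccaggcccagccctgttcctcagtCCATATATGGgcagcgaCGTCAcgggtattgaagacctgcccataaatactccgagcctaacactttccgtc
The Fos window held 2 cores, the nearer one 66 to 62 bases before the start, and a TATA box 33 to 28 bases before it. The Nr4a1 window held 4 cores and the Dusp1 window 3, of which 2 overlap as the full palindrome TGACGTCA. In the Egr2 window the CArG box lay between the cores, 72 to 63 bases before the start.

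Promoter windows were found for 23 of the 29 genes that fell and for 8576 of the genes tested. No window was found for Egr1, Ier2, Egr3, Gm8615, Arc and Nfkbiz, so their promoters were not searched. In all, 5 motifs were searched on both strands, and a gene with several starts counted if any window held the motif. The CRE core was in 14 of the 23 (60.9%), against 31.2% of the genes tested and 17.8% of all 32851 windows. The full palindrome TGACGTCA, which contains the core, was in 4 of the 23 (17.4%; Btg2, Ch25h, Dusp1 and Errfi1) against 3.06% of the genes tested and 1.55% of all windows. The CArG box was in Egr2 and Zfp36 (8.70%) against 1.56% and 1.47%. Sequence farther upstream was not searched, so a gene without a match, such as Fos, may still have a CArG box there. The TATA box TATAAA was in 4 (17.4%; Fos, Ch25h, Errfi1 and H3f3b) against 7.85% and 12.4%, and the Egr site GCGGGGGCG was in 4 (17.4%; Fosb, Nr4a1, Zfp36 and Klf2) against 5.82% and 2.57%. Of the 7 genes that rose, 5 had a window, and 1 of these held the CRE core. These matches describe the letters in the windows; no test was made, and binding was not measured.

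A gene was called when its adjusted p was under 0.05 in limma's test on log2(FPKM + 1), fitted over all 15 libraries with Benjamini-Hochberg correction across the genes tested. The 29 genes called lower were 0.242% of those tested and the 7 called higher were 0.0583%. Fold changes below are log2 differences (4 h minus 30 min) with their standard error, 3 libraries against 3. Across all genes the median log2 fold change was 0.0039, and the 10th and 90th percentiles were -0.18 and 0.17. An unadjusted p under 0.05 was reached by 1483 genes (12.4%). In 17 of the 29 genes that fell the change was over 1 on the log2 scale, and in none of the 7 that rose (0 of 7). The 4 h and 30 min values of all 36 called genes did not overlap; over all genes tested, every 4 h library was below every 30 min library for 7.71% and above for 9.78%.

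**Figure D1:**
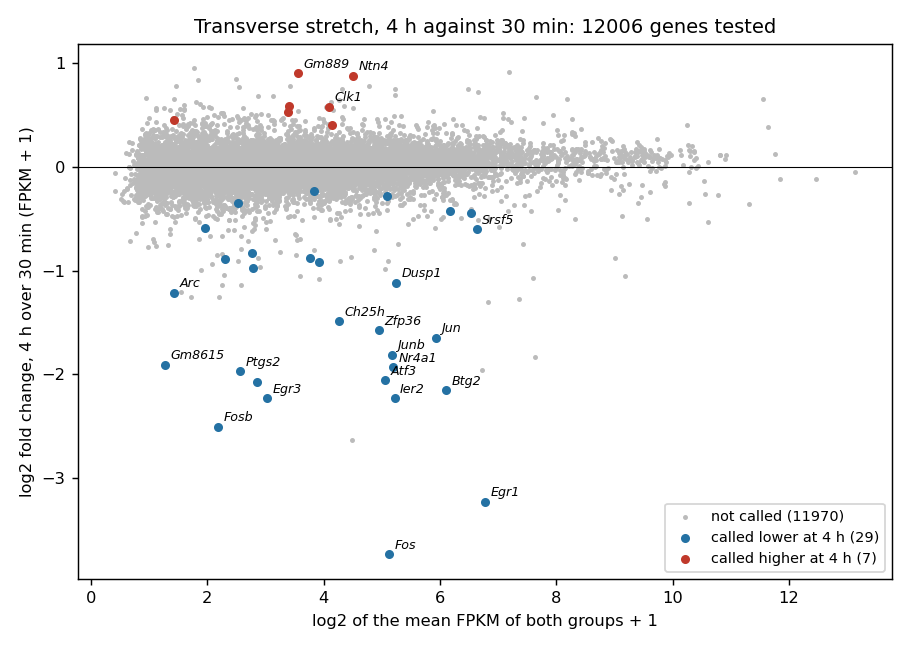
Log2 fold change at 4 h over 30 min of transverse stretch (vertical axis, FPKM + 1) against log2 of the mean FPKM of both groups plus 1 (horizontal axis) for the 12006 genes tested; blue points are the 29 genes called lower, red points the 7 called higher. The genes that fell reach -3.74 (Fos), while no gene that rose passes 0.90 (Gm889).

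The counts rested in part on single libraries and on the spread borrowed from the other groups. Without the 4 h library C, 18 genes were called lower and 0 higher. Without the 30 min library A the counts were 19 and 1, without the 4 h library A 19 and 2, and without the 4 h library B 24 and 1. Leaving out the control library C, or the longitudinal 30 min library B or C, gave 4 genes called higher, all among the 7. Without the 30 min library B there were also 4, of which only 1 was among the 7. Without the 30 min library C, 8 were called higher, of which 2 were among the 7. With only the 6 transverse libraries in the fit, 15 genes were called lower and 0 higher. Egr2, Egr3, Ch25h and Arhgef19 lost their call in that fit (limma adjusted p = 0.0622, 0.0505, 0.117 and 0.150). These genes kept it whichever single library was left out of the full fit. Of the 29 genes that fell, 17 remained called whichever of the 15 libraries was left out; of the 7 that rose, 0 did. The 12 others that fell were Atf3, Ptgs2, Jun, Arc, Klf2, Errfi1, Srsf5, H3f3b, H1f0, Pomt1, Srsf6 and Gtf3c2, whose highest adjusted p over these fits ran from 0.0611 (Jun) to 0.254 (H1f0). For the 7 that rose the highest adjusted p ran from 0.118 to 0.254. Some calls held in few of these 15 fits: Gtf3c2 in 1, Pomt1, Dusp16 and Ntn4 in 2, H1f0 in 3 and Gm13375 in 4.

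Genes of the AP-1 transcription factor were among the largest falls. Fos encodes a leucine zipper protein that pairs with Jun proteins to form AP-1, and lies at chr12:86814851-86818219 in mm9. Its level was 70.6, 56.0 and 65.0 FPKM in libraries A, B and C at 30 min and 3.25, 4.70 and 3.69 FPKM at 4 h, against 3.30, 3.04 and 2.32 FPKM in the controls. Every 30 min library was far above both other groups, and the 4 h values overlapped the control values. The log2 fold change was -3.74 ± 0.16 (limma adjusted p = 7.76e-08). Its relative Fosb went from 7.19, 5.84 and 7.16 FPKM to 0.449, 0.393 and 0.238 FPKM (-2.50 ± 0.24, limma adjusted p = 0.000236), back among the control values of 0.570, 0.334 and 0.303 FPKM.

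The Jun partners fell less far. Junb went from 61.6, 46.5 and 57.9 FPKM at 30 min to 15.1, 15.1 and 14.8 FPKM at 4 h, just above the controls at 13.6, 14.7 and 13.1 FPKM (-1.81 ± 0.12, limma adjusted p = 5.48e-06). Jun went from 105, 72.5 and 97.1 FPKM to 30.6, 30.5 and 24.2 FPKM (-1.65 ± 0.24, limma adjusted p = 0.00759) and overlapped the controls at 26.5, 13.8 and 22.9 FPKM. Atf3, a stress-induced leucine zipper factor, went from 52.3, 68.3 and 37.9 FPKM to 10.3, 16.6 and 8.99 FPKM (-2.06 ± 0.36, limma adjusted p = 0.0296). Its groups did not overlap, but its adjusted p was 0.104 with the replicate letter as a block over 15 libraries (which compares libraries of the same letter) and 0.0015 with that block over the 6 transverse libraries. The block over the 6 was chosen after the data were seen, here and below.

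The Egr genes, which encode zinc finger transcription factors, fell together. Egr1 went from 235, 154 and 201 FPKM at 30 min to 17.0, 20.1 and 22.7 FPKM at 4 h (-3.23 ± 0.16, limma adjusted p = 2.64e-07). The controls held 18.6, 17.2 and 14.9 FPKM, which the 4 h values overlapped. Egr2, from 15.2, 7.93 and 9.15 to 1.43, 1.52 and 2.23 FPKM (-2.07 ± 0.21, limma adjusted p = 0.000305), and Egr3, from 16.9, 9.36 and 11.2 to 1.30, 1.67 and 2.56 FPKM (-2.23 ± 0.26, limma adjusted p = 0.00147), likewise overlapped the controls at 4 h. Library A was the highest of the 30 min libraries for all 3 genes.

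The other transcription regulators of the class that fell were Ier2, Nr4a1 and Klf2. Ier2, a nuclear protein induced by growth factors, had little spread: 64.8, 54.5 and 62.3 FPKM at 30 min, 11.1, 12.4 and 12.8 FPKM at 4 h and 12.5, 11.1 and 11.6 FPKM in the controls (-2.23 ± 0.10, limma adjusted p = 7.76e-08). Nr4a1, an orphan nuclear receptor, went from 71.5, 42.9 and 57.6 FPKM to 13.7, 15.9 and 12.6 FPKM (-1.93 ± 0.17, limma adjusted p = 8.08e-05). All 4 h values of Nr4a1 were still above the controls at 8.99, 10.3 and 10.4 FPKM. Klf2, known for its response to shear stress in endothelium, went from 19.9, 20.3 and 15.9 FPKM to 8.88, 10.9 and 8.53 FPKM (-0.91 ± 0.15, limma adjusted p = 0.0172). With the block its limma adjusted p was 0.0543 over 15 libraries and 0.0190 over the 6 transverse libraries.

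In all, 11 of the 27 immediate early transcription factors tested fell and 0 rose, with a list median of -0.53 against 0.0039 over all genes. Over all genes tested 0.242% were called lower and 0.0583% higher, the shares to set beside the list counts below as well. The lists were chosen with earlier results of these data known, so their counts are a description. The 16 others ran from -0.88 (Csrnp1) to 0.25 (Klf10). Myc, a growth regulator, was among them, at 8.37, 10.3 and 6.60 FPKM against 5.32, 7.57 and 3.91 FPKM (-0.53 ± 0.21, limma adjusted p = 0.338), and its groups overlapped.

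**Figure D2:**
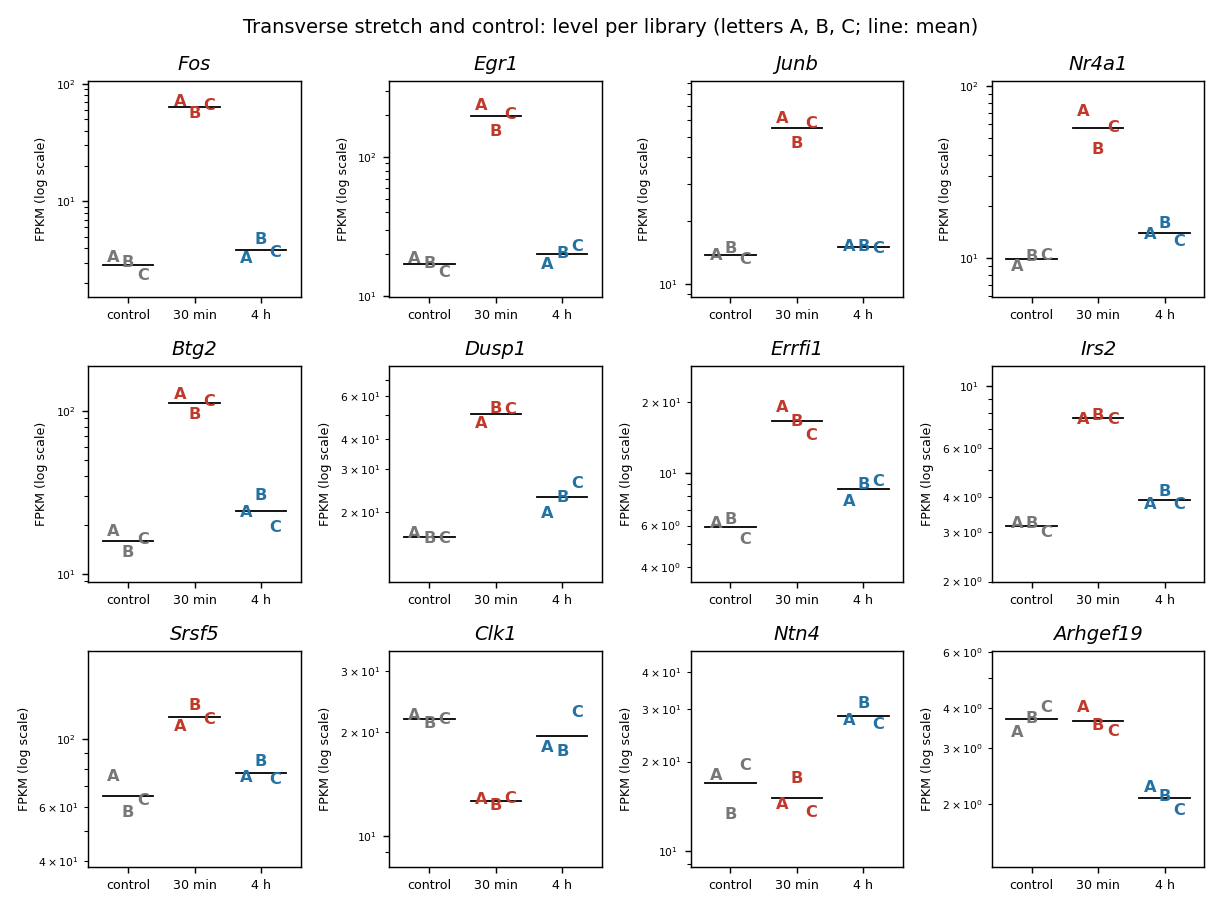
FPKM on a log axis in each control, transverse 30 min and transverse 4 h library, with the letters A, B and C as the libraries and a line at the group mean, for 12 of the called genes. The 9 genes from Fos to Srsf5 stand high at 30 min, Clk1 stands low at 30 min, and Arhgef19 is low at 4 h only.

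Inhibitors of signalling moved in both directions. Dusp1, a nuclear phosphatase of MAP kinases, went from 46.4, 53.1 and 52.7 FPKM at 30 min to 19.8, 23.0 and 26.1 FPKM at 4 h and stayed above the controls at 16.2, 15.5 and 15.5 FPKM in every library (-1.12 ± 0.12, limma adjusted p = 0.000413). Errfi1, an inhibitor of EGF receptor kinases, went from 18.8, 16.5 and 14.4 FPKM to 7.54, 8.92 and 9.24 FPKM (-0.87 ± 0.14, limma adjusted p = 0.014; 0.0865 with the block over the 6 transverse libraries). Dusp16, a phosphatase of JNK and p38, was in contrast the 1 member that rose, from 7.69, 8.20 and 6.85 FPKM to 10.9, 11.6 and 11.5 FPKM (0.53 ± 0.10, limma adjusted p = 0.0492). The Dusp16 call was lost with the block, at an adjusted p of 0.0712 over the 6 libraries and 0.0980 over 15. It held in only 2 of the 15 fits that left out 1 library. Of the 17 members tested, 2 fell and 1 rose, and the median was -0.14.

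Dusp5, a phosphatase of ERK, was not called, with 8.92, 11.4 and 9.95 FPKM at 30 min and 5.28, 6.48 and 5.66 FPKM at 4 h (-0.70 ± 0.15, limma adjusted p = 0.112), but its groups did not overlap and its adjusted p with the block over the 6 libraries was 0.0190. That block was chosen after the data were seen. Rgs16, which turns off G protein signalling and is in none of the lists, went from 8.16, 8.48 and 7.94 FPKM to 3.41, 3.91 and 3.70 FPKM (-0.98 ± 0.13, limma adjusted p = 0.00346).

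Regulators of mRNA decay and growth arrest were represented by Btg2 and Zfp36, 2 of 15 tested, with 0 higher and a median of -0.21. Btg2, an antiproliferative protein that recruits the deadenylase complex, lies at chr1:135971442-135975732 in mm9. It went from 125, 94.3 and 115 FPKM to 23.9, 30.2 and 19.3 FPKM, still above the controls at 18.2, 13.5 and 16.2 FPKM in every library (-2.16 ± 0.17, limma adjusted p = 3.72e-05). Zfp36, which binds AU-rich elements and speeds decay of many immediate early mRNAs, went from 46.2, 40.7 and 48.8 FPKM to 13.1, 16.3 and 14.2 FPKM (-1.57 ± 0.17, limma adjusted p = 0.000811), overlapping the controls.

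In the cytokine and NF-kB list, 2 of 20 fell, 0 rose and the median was -0.06. Ptgs2, the inducible enzyme of prostaglandin synthesis, went from 9.46, 12.2 and 3.88 FPKM at 30 min to 1.18, 1.78 and 0.852 FPKM at 4 h (-1.97 ± 0.33, limma adjusted p = 0.0246). The 30 min library C had less Ptgs2 than the other two, though more than every 4 h library, and the adjusted p was 0.0903 with the block over 15 libraries and 0.0300 over the 6. Nfkbiz, a nuclear regulator of NF-kB, went from 5.40, 4.68 and 6.10 FPKM to 2.52, 2.54 and 2.27 FPKM (-0.89 ± 0.13, limma adjusted p = 0.00623; 0.0558 with the block over the 6 libraries). Macrophage markers are given beside these: the sum of 15 markers was 477 to 532 FPKM at 30 min and 535 to 674 FPKM at 4 h, without overlap, and 457 to 642 FPKM in the controls. No macrophage marker was called by limma (0 of 15). An unadjusted p under 0.05 in limma was reached by 4 (26.7%), all 4 higher at 4 h, against 12.4% of all genes tested. Among the 6 transverse libraries the 4 h library C was the highest for 11 of the 15 markers, against 16.7% of all genes tested. The part of such cells in the Ptgs2 and Nfkbiz values was not tested. In bulk cultures fewer cells of a type and less RNA per cell cannot be told apart.

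Ch25h, which makes the regulatory sterol 25-hydroxycholesterol, was the 1 called gene of the 15 in the sterol list, whose median was -0.24. It went from 34.1, 23.6 and 24.1 FPKM to 9.59, 10.7 and 6.89 FPKM, where it overlapped the controls at 7.59, 4.54 and 5.74 FPKM (-1.49 ± 0.19, limma adjusted p = 0.00245). Irs2, an adaptor of the insulin receptor and a FoxO target, was the 1 called gene of 12 in the atrophy and FoxO list (median 0.07). It was at 7.61, 7.86 and 7.61 FPKM at 30 min, 3.76, 4.19 and 3.77 FPKM at 4 h and 3.24, 3.22 and 3.0 FPKM in the controls (-0.83 ± 0.12, limma adjusted p = 0.00611). It was still above every control library at 4 h.

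Splicing regulators moved in opposite directions. Srsf5 and Srsf6 encode SR proteins, and Clk1 encodes a kinase that phosphorylates SR proteins. Srsf5 went from 110.1, 129 and 116 FPKM at 30 min to 75.1, 84.4 and 73.5 FPKM at 4 h (-0.60 ± 0.09, limma adjusted p = 0.0147), and Srsf6 from 36.6, 36.7 and 36.1 to 30.0, 31.4 and 28.5 FPKM (-0.28 ± 0.05, limma adjusted p = 0.0227). Clk1 was low at 30 min, 12.8, 12.3 and 12.9 FPKM against 22.3, 21.2 and 21.7 FPKM in the controls, and rose to 18.1, 17.6 and 22.8 FPKM at 4 h (0.58 ± 0.10, limma adjusted p = 0.0228). With the block over the 6 libraries the adjusted p was 0.142 for Srsf6 and 0.0842 for Clk1. Over 15 libraries the blocked limma adjusted p was 0.0903 for each of these genes. Of 19 members tested, 2 fell and 1 rose; the median was -0.01.

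Among the genes that fell and belong to no list, Arc, an activity-regulated cytoskeletal gene best known in neurons, went from 3.31, 2.70 and 2.34 FPKM to 0.563, 0.637 and 0.676 FPKM (-1.21 ± 0.19, limma adjusted p = 0.0147). A different pattern was seen in Arhgef19, with 3.35, 3.71 and 4.03 FPKM in the controls, 4.03, 3.54 and 3.38 FPKM at 30 min and 2.26, 2.12 and 1.91 FPKM at 4 h (-0.59 ± 0.08, limma adjusted p = 0.00317). It was below the controls at 4 h (-0.60 ± 0.08, limma adjusted p = 0.0169), 1 of 2 genes called in that comparison (0.0167% of those tested), which shares its 4 h libraries with the first. That comparison called 1 gene without the control library B or C or the 4 h library B or C, and 4 without the control library A or the 30 min library A. The adjusted p of Arhgef19 at 4 h against 30 min was 0.0558 with the block over the 6 libraries.

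The remaining falls were small. H3f3b, which encodes histone H3.3, went from 109, 110.5 and 97.0 FPKM to 77.1, 80.8 and 72.9 FPKM (-0.45 ± 0.07), and H1f0, a linker histone of resting cells, from 83.9, 87.1 and 74.9 FPKM to 59.5, 59.6 and 62.8 FPKM (-0.43 ± 0.08). Pomt1, a protein O-mannosyltransferase, changed by -0.35 ± 0.06 and Gtf3c2, a subunit of the RNA polymerase III factor TFIIIC, by -0.23 ± 0.04. All 4 were below every control library at 4 h, and with the block over the 6 libraries their adjusted p was 0.0639, 0.126, 0.123 and 0.158. Over 15 libraries the blocked limma adjusted p was 0.0274 for H3f3b, 0.0993 for H1f0, 0.118 for Pomt1 and 0.139 for Gtf3c2. Pomt1 overlaps Uck1 in the table, and the kit does not mark strand, so their reads cannot be fully told apart.

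By size of change, the genes that rose were led by Gm889 and Ntn4, though Ntn4 stayed called in only 2 of the 15 leave-out fits. Gm889, named Lsmem1 by RefSeq, went from 6.54, 7.32 and 7.73 FPKM at 30 min to 12.5, 15.6 and 14.9 FPKM at 4 h, above the controls at 11.9, 8.14 and 7.48 FPKM (0.90 ± 0.14, limma adjusted p = 0.0172). With the block its limma adjusted p was 0.0543 over 15 libraries and 0.0103 over the 6 transverse libraries. Ntn4, a secreted netrin related to laminins, lies at chr10:93103794-93208717 in mm9 and went from 14.4, 17.5 and 13.4 FPKM to 27.4, 31.4 and 26.7 FPKM, with controls at 18.0, 13.3 and 19.4 FPKM (0.88 ± 0.16, limma adjusted p = 0.0488). For Ntn4 the block gave a limma adjusted p of 0.160 over 15 libraries and 0.0098 over the 6. Every 4 h library of both genes was above every control and every 30 min library. Ntn4 overlaps Gm8580 in the table.

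Met, the receptor of hepatocyte growth factor, rose from 1.14, 1.4 and 1.24 FPKM to 1.91, 2.26 and 2.10 FPKM (0.45 ± 0.08, limma adjusted p = 0.0228). Dbn1, the actin-binding protein drebrin, rose from 15.4, 13.8 and 13.7 FPKM to 18.3, 20.0 and 19.4 FPKM (0.40 ± 0.07, limma adjusted p = 0.0227). The non-coding RNA Gm13375 rose from 7.48, 6.70 and 8.24 FPKM to 10.6, 11.2 and 13.4 FPKM (0.59 ± 0.11, limma adjusted p = 0.0478). All 3 stood above the controls at 4 h in every library. With the block over the 6 libraries their adjusted p was 0.0989, 0.126 and 0.0560. Over 15 libraries the blocked limma adjusted p was 0.0950 for Met, 0.0395 for Dbn1 and 0.103 for Gm13375.

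For 25 of the 29 genes that fell, every 30 min library was above every control, and for the other 4 the groups overlapped; over all genes tested the 30 min libraries were above for 4.01%. The 29 were called with the same 30 min libraries, so their count is a description. At 4 h, 16 overlapped the controls, 7 were still above in every library (Btg2, Nr4a1, Junb, Dusp1, Rgs16, Errfi1 and Irs2) and 6 were below (Gm8615, Arhgef19, H3f3b, H1f0, Pomt1 and Gtf3c2). Over all genes tested, every 4 h library was above every control for 10.9% and below for 9.68%. Of the 7 genes that rose, 6 were above every control at 4 h and Clk1 overlapped them. These comparisons share libraries, so the placements are given side by side and without a test.

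The genes that fell had shorter spans, given as a description. Their median span in the table was 4320 bases, against 24648 over all genes tested, and 21 of 29 (72.4%) spanned under 10 kb against 23.6% of all. The 7 that rose had a median span of 22930 bases.

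Longitudinal stretch, measured in other libraries, gave the same direction for most of these genes. Of the 29 that fell under transverse stretch, 28 had the same sign on the longitudinal axis and 27 were called there; of the 7 that rose, 7 had the same sign and 4 were called. Both comparisons took their spread from the same fit of 15 libraries, so the calls are not fully separate. The share of all genes tested with the same sign on both axes was not counted. The longitudinal comparison called 597 genes, 4.97% of those tested, 226 higher and 371 lower. That count fell to 62, 64, 72 and 79 without the longitudinal 30 min library C, 30 min B, 4 h C or 4 h A. Of the 29 and 7 genes, 9 and 0 were called when only the longitudinal groups were fitted, which called 12 genes in all. With the block over 15 libraries, which called 187, the numbers were 24 and 0. Without 1 library they ranged from 17 to 27 of the 29 and from 0 to 5 of the 7. The first was lowest at 17 and 18, without the longitudinal 30 min library B or C. The second was 0 without either of these or the longitudinal 4 h library A or C. It was 1 without the longitudinal 30 min library A or the control library C, and 2 without the transverse 30 min library A or the longitudinal 4 h library B. The longitudinal count was 297 without the longitudinal 30 min library A, 350 without the control library C and 927 without the transverse 30 min library B. Leaving out Gm8615, the median size over 35 genes was 0.91 under transverse and 0.79 under longitudinal stretch. These genes were called on their transverse values, which favours a larger transverse size, so the medians do not compare the axes. Fos changed by -3.45 ± 0.16 on the longitudinal axis, Egr1 by -3.03 ± 0.16 and Ntn4 by 0.66 ± 0.16. The test of the difference between axes called 1 gene, Gm8615 (0.00833% of those tested), and among the other 35 the lowest adjusted p was 0.837. It called 2 genes without the transverse 30 min library A.

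**Figure D3:**
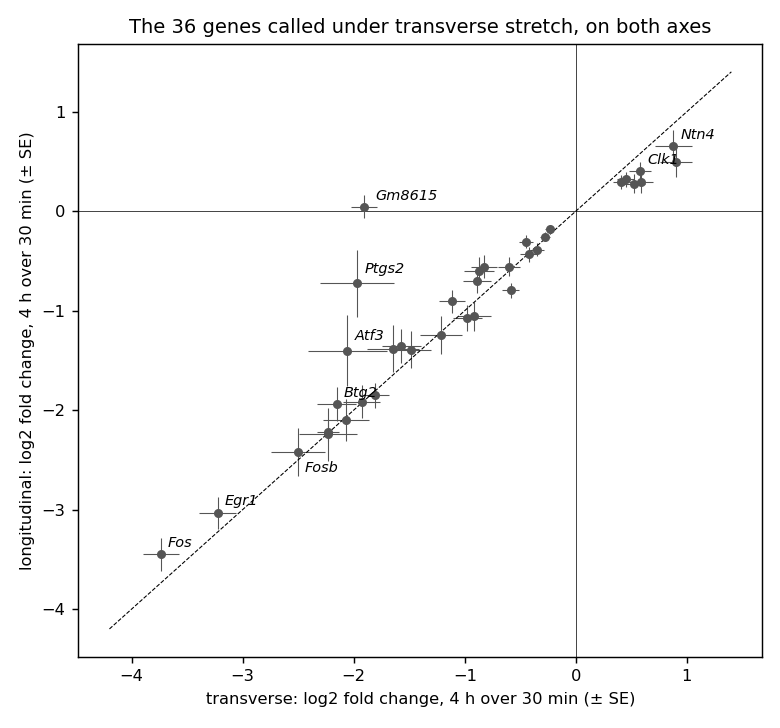
Log2 fold change at 4 h over 30 min under transverse (horizontal axis) and longitudinal (vertical axis) stretch for the 36 genes called under transverse stretch, with bars of 1 standard error and a dashed line of equality. All points but Gm8615 have the same sign on both axes.

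After Gm8615, Ptgs2 and Atf3 lay farthest from equality among the 36 genes. Ptgs2 changed by -1.97 under transverse and -0.73 under longitudinal stretch (limma adjusted p = 0.204 for the latter), and the difference itself had an adjusted p of 0.837. Gm8615, a transcribed pseudogene in RefSeq, lies at chr5:149931141-149993612 in mm9. It was at 2.77, 2.36 and 3.36 FPKM at 30 min and 0.0247, 0.0223 and 0 FPKM at 4 h of transverse stretch (-1.91 ± 0.12, limma adjusted p = 1.59e-06), but at 2.95, 2.92 and 2.07 FPKM at 4 h of longitudinal stretch. Its row spans 62472 bases, and the sequences that drive the value cannot be told from the table.

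In all, 19 of the 26 process lists had no called gene in either direction (0 of 355 distinct genes), with medians from -0.27 to 0.39. Over all genes tested only 0.242% were called lower and 0.0583% higher. An unadjusted p under 0.05 in limma was reached by 30 of the 355 (8.45%), 9 higher and 21 lower. Over all genes tested the share was larger, 12.4%, with 780 higher and 703 lower. The lists include targets of YAP, which responds to cell tension, the SRF and MRTF cytoskeletal genes, load-responsive and fetal heart genes, sarcomere genes and extracellular matrix genes. A p that misses the threshold does not show that these genes kept their level.

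**Figure D4:**
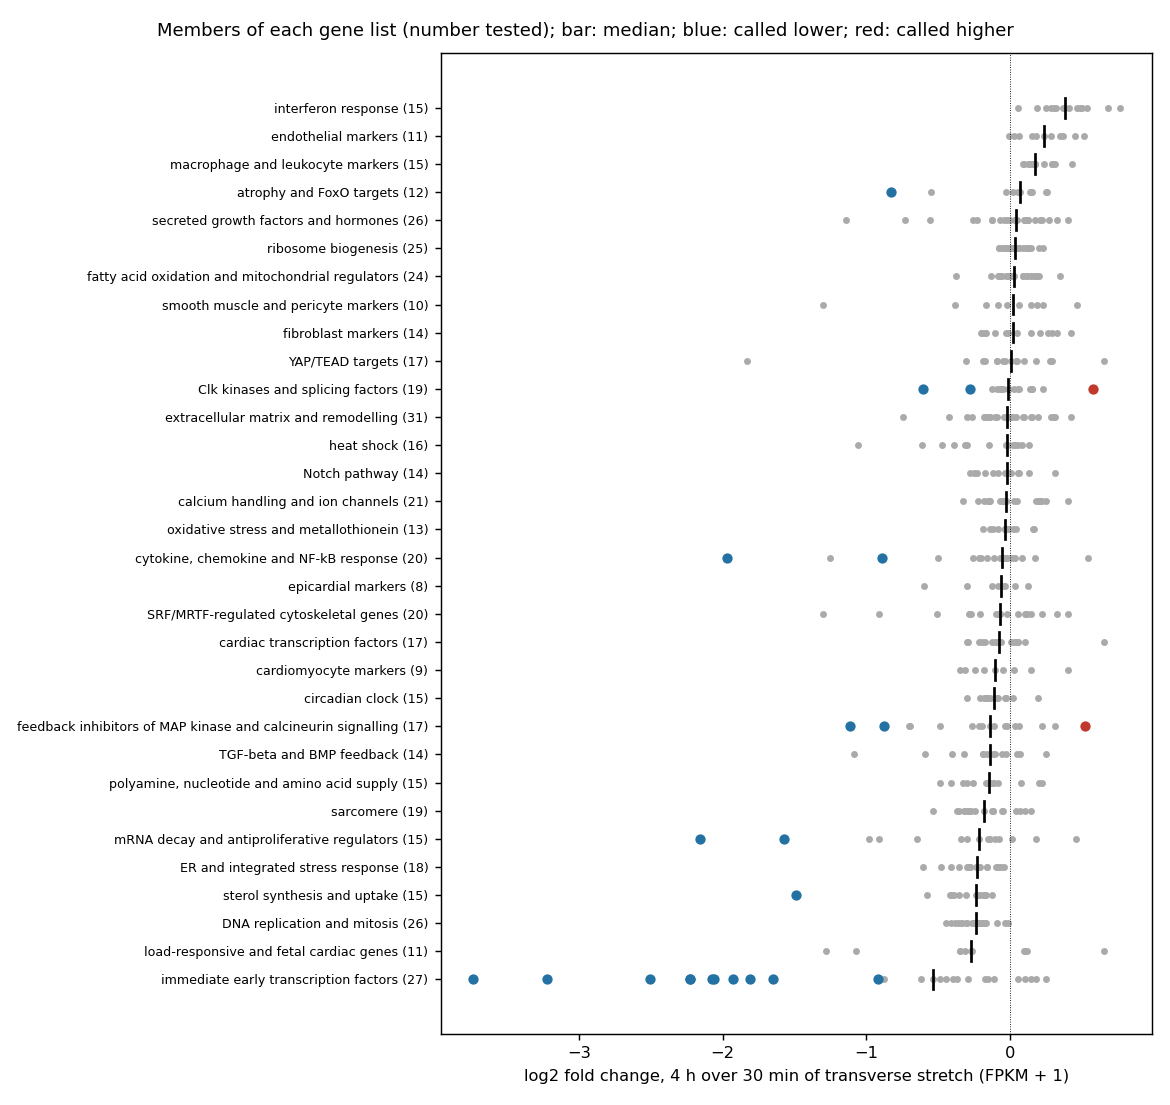
Log2 fold change at 4 h over 30 min of transverse stretch (horizontal axis) for the members of each gene list with at least 3 tested (number tested in brackets); grey points were not called, blue were called lower, red were called higher, and black bars are list medians. The immediate early list has the lowest median, -0.53, and the interferon list the highest, 0.39.

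Several load-responsive genes varied widely between libraries and were not called. Cyr61, a matricellular protein and YAP target, went from 278, 448 and 202 FPKM at 30 min to 79.1, 121 and 56.3 FPKM at 4 h without overlap (-1.83 ± 0.41, limma adjusted p = 0.15), and its adjusted p was 0.0015 with the block over the 6 libraries. That block was chosen after the data were seen. Nppb, which encodes brain natriuretic peptide, was at 267, 3455 and 112 FPKM against 551, 1196 and 194 FPKM (0.10 ± 1.21, limma adjusted p = 0.98). Ctgf, a relative of Cyr61, was at 382, 1381 and 192 FPKM against 438, 719 and 218 FPKM (-0.19 ± 0.75, limma adjusted p = 0.947). In all 3 genes library B was the highest of its group at both times.

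**Figure D5:**
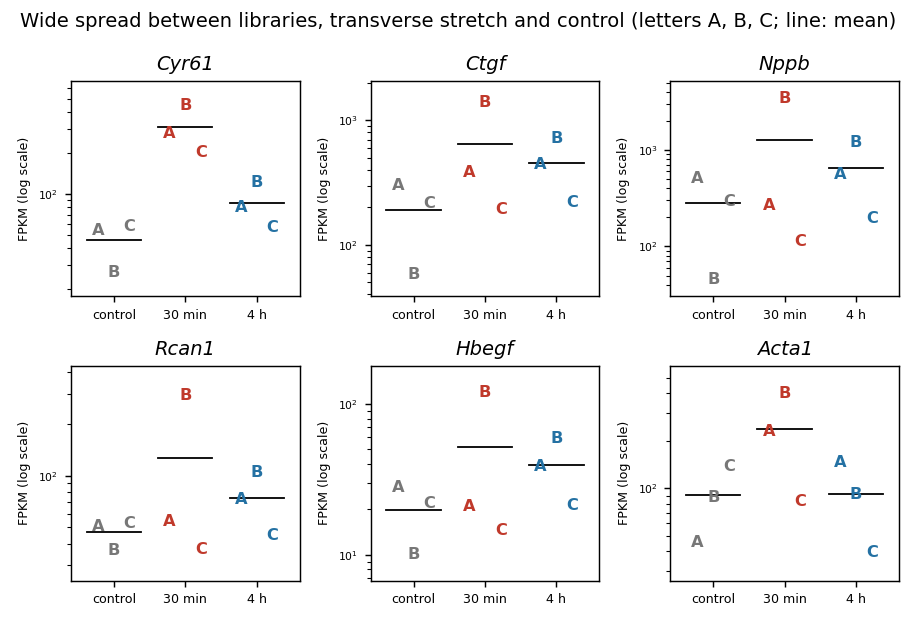
FPKM on a log axis in each control, transverse 30 min and transverse 4 h library (letters A, B and C; line at the group mean) for 6 genes with a wide spread, chosen after their values were seen. Library B at 30 min stands highest in each panel, with 267, 3455 and 112 FPKM of Nppb in A, B and C at 30 min.

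The same library stood high for Rcan1, a calcineurin inhibitor, at 54.0, 291 and 37.1 FPKM against 72.3, 105 and 44.7 FPKM, and for Hbegf, an EGF receptor ligand, at 21.0, 119.6 and 14.4 FPKM against 38.2, 58.9 and 21.1 FPKM. For Ctgf, Nppb, Rcan1 and Hbegf the sign of the change depended on which library was left out. Acta1, skeletal actin of the fetal heart, was at 229, 396 and 82.8 FPKM against 146, 90.9 and 39.0 FPKM (-1.28 ± 0.74, limma adjusted p = 0.505). Myh7, the slow myosin of the fetal heart, was at 718, 953 and 627 FPKM against 606, 562 and 609 FPKM (-0.35 ± 0.18, limma adjusted p = 0.458), without overlap. Gja1, the main gap junction protein, was at 379.7, 371 and 446 FPKM against 476, 451 and 489 FPKM (0.25 ± 0.15, limma adjusted p = 0.523), also without overlap.

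The interferon list had the highest median, 0.39, with 0 of 15 called by limma and 0 at an unadjusted p under 0.05. All 15 members were highest in the 4 h library A among the 6 transverse libraries, which was the highest for 11.4% of all genes tested. Stat2, a transducer of interferon signals, was at 11.2, 4.75 and 4.43 FPKM at 4 h and 4.27, 4.17 and 4.27 FPKM at 30 min, and the guanylate-binding protein gene Gbp3 at 5.74, 1.08 and 1.23 FPKM and 1.02, 1.11 and 1.57 FPKM. Libraries B and C at 4 h were close to the 30 min libraries for both. Other lists leaned on 1 library too. The 30 min library A was the highest for 25 of 26 DNA replication and mitosis genes (14.8% of all genes tested). The 30 min library B was the highest for 14 of 16 heat shock, 13 of 15 sterol and 10 of 11 load-responsive genes (27.1% of all).

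Across the series, the 6 transverse libraries correlated at 0.972 to 0.994 on the log2(FPKM + 1) scale, and the table gives no read counts, so absolute depth is unknown. Of 269 to 272 low genes compared per library with the 30 min library A, only 5 to 14 lay on a shared step of whole reads, so relative depth is not given. Library B at 30 min also stood apart from A and C on the first principal component, which held 49.1% of the variance. Without both transverse B libraries, 15 genes were called lower and 0 higher. Cardiomyocyte markers summed to 12587 to 16919 FPKM at 30 min and 13642 to 14205 FPKM at 4 h, so the labelled cell type carried its markers. Fibroblast markers (2508 to 2922 FPKM against 2751 to 2780 FPKM), smooth muscle markers (506 to 1468 FPKM against 586 to 946 FPKM) and endothelial markers (58.2 to 78.2 FPKM against 70.9 to 88.8 FPKM) were also present. In the marker lists limma called 0, and 8 of 68 markers (11.8%) had an unadjusted p under 0.05, against 12.4% of all genes tested. Of the erythroid markers 0 were in the table, and of the neuronal and glial markers 1 was tested. Nppa, Myh6, Tnnt2 and Actc1 were not analysed here.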

How the data were processed

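Poly(A) RNA was sequenced on an unstranded kit, per the labels' protocols. The authors deposited 1 table of FPKM values, 1 per gene and library, a unit inferred from Cufflinks in the submitters' processing notes and from the values. TopHat 1.4.1, Cufflinks 2.0.2 and mm9 are named in the submitters' processing notes, with no role or order. Group averages, fold changes, p- and q-values in the table were not used. Gene starts count from 0 there, so 1 was added.

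Values were tested as log2(FPKM + 1), which understates changes of low genes, with limma 3.58.1 (R 4.3.3, trend and robust) in 1 fit of the 5 group means (10 residual degrees of freedom). Tests were two-sided with Benjamini-Hochberg adjustment, and the fit was tested on simulated data. The stretchers are called biological replicates per the labels; p-values measure the spread between them. Same-lettered transverse libraries deviated together (r = 0.20, 0.66 and 0.66 for A, B and C), so blocked values are given where a call changed. This pairing comes from the data, since the labels give no shared source. Over all groups it does not hold: of 30 same-letter pairs, 10 had r over 0.1, and r ran from -0.81 to 0.66. What a call lost with the block over 15 libraries reflects was not tested.

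Named genes were up to 15 called genes per direction with the largest change, no overlap and a mean of at least 5 FPKM in a group, up to 4 members of smallest p per list, the top interaction genes and a fixed set. Another 9 called genes (Arc, Rgs16, Klf2, Arhgef19, H3f3b, H1f0, Pomt1, Gtf3c2 and Met) and the members named as extremes or for library spread were named after their values were seen. The members, motifs and 34 lists were chosen with earlier results of these data known. Alternatives were other pseudocounts, filters, scalings, fits, the block and each library left out.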

Additional observations from a re-analysis of the deposited data

Results flagged for a closer look

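Gm8615 was singled out because its change from 30 min to 4 h differed between the axes by the test of that difference. Its level was 2.77, 2.36 and 3.36 FPKM at 30 min and 0.0247, 0.0223 and 0 FPKM at 4 h of transverse stretch, with library C listed at 0. Under longitudinal stretch it was 2.66, 2.71 and 2.2 FPKM at 30 min and 2.95, 2.92 and 2.07 FPKM at 4 h, and the controls held 2.94, 3.71 and 3.37 FPKM. The difference between the changes was -1.95 ± 0.16 on the log2 scale (limma adjusted p = 0.00032). The gene was the 1 called in that test.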

How the results depend on the processing

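Counts of called genes depended on the settings. Of the 36 called genes, 0 changed sign under any alternative run, but this was largely fixed in advance. Their 4 h and 30 min values did not overlap, so leaving out 1 library or changing the pseudocount or filter could not change the sign. Genes called higher numbered 4 with libraries centred on their median, 4 in limma without trend and robust, and 0 in a fit of the 2 groups alone; genes called lower numbered 15 in that last fit. With the replicate block over 15 libraries, 1 gene was called higher and 22 lower. With the block over the 6 transverse libraries, chosen after seeing the data, 6 were higher and 25 lower, of which 23 were among the 36; the additions were Cyr61, Dusp5, Ereg and Ppp1r15a lower and Bach2, Cd1d1, Fabp4 and Slc25a13 higher. Leaving out both transverse B libraries, also chosen after seeing the data, gave 0 higher and 15 lower. Leaving out each library in turn gave 0 to 8 genes higher, 18 to 30 lower, 62 to 927 for the longitudinal comparison (597 with all), 1 to 2 for the difference between axes and 1 to 4 for transverse 4 h against control. The longitudinal count was 12 with only the groups compared and 187 with the block. The difference between axes called 2 genes with no filter, 0 with a minimum of 5 FPKM and 3 with small RNA rows kept. Transverse 4 h against control called 0 with a minimum of 5 FPKM, 1 with only the groups compared, 7 with small RNA rows kept and 1 with the block. The cause was not tested.

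The genes that changed sign, Hbegf, Nppb, Ctgf and Rcan1, were not called. Leaving out 1 library at a time gave log2 fold changes of -0.47 to 1.02 for Hbegf, -0.93 to 1.54 for Nppb, -0.82 to 0.60 for Ctgf and -0.84 to 0.63 for Rcan1. Hbegf was at -0.21 without the 30 min library A, -0.47 without the 30 min library C and -0.22 without the 4 h library B. Nppb was at -0.31, -0.93 and -0.52 in the same order. Ctgf was at 0.60 and Rcan1 at 0.63 without the 30 min library B, at 0.27 and 0.05 without the 4 h library C, and at 0.19 and 0.34 without both B libraries. With no read counts, depth limits cannot be given.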

Other observations

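Some large changes that were not called rested on 1 or 2 libraries; the genes named here were chosen after their values were seen. Rps27, a ribosomal protein gene, was at 3.36, 66.8 and 50.2 FPKM at 30 min and 3.35, 2.64 and 3.04 FPKM at 4 h, with 2.99, 2.91 and 2.44 FPKM in the controls, so the 30 min libraries B and C stood apart from A (-2.63 ± 0.72, limma adjusted p = 0.21). The pseudogene Atp6v0c-ps2 was at 0.531, 131 and 135 FPKM at 4 h and 80.4, 140.4 and 138 FPKM at 30 min, with library A at 4 h far below the rest (-1.96 ± 1.32, limma adjusted p = 0.572). Genes with near-identical copies elsewhere, as ribosomal protein genes and this pseudogene have, are uncertain in such a table. Id1, an inhibitor of differentiation downstream of BMP signals, was also not called, but its change did not rest on 1 or 2 libraries. It was at 17.4, 29.0 and 13.4 FPKM at 30 min and 8.90, 9.05 and 7.36 FPKM at 4 h, without overlap (-1.08 ± 0.30, limma adjusted p = 0.219).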
